A study of Homo sapiens with 4 samples.

Results

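The DNA replication and origin genes were examined after knockout of BRD9 in G401 cells, a long-established line that grew out of a kidney rhabdoid tumour. They were 50 genes chosen by name for their place in replication from the 57820 gene models in the tables, and all 50 were among the 15288 genes with enough counts to be tested. RNA sequencing covered 4 libraries, 2 labelled BRD9 KO and 2 labelled LacZ, the control guide. The cells were grown in DMEM with serum, and every library carried the background of this line, in which SMARCB1 is lost: SMARCB1 had 0 counts in all 4 libraries, so that by counting error alone its level was at most 0.199 CPM (counts-per-million of a library) where depth was lowest. BRD9 is a bromodomain protein of a SWI/SNF chromatin-remodelling complex that forms without SMARCB1, and the comparison asks how transcripts differ once it is gone. The methods describe Cas9 and a guide delivered by lentivirus with antibiotic selection. No isolation of a clone is described for these libraries and the day of harvest is not given, so that a knockout library can hold edited and unedited cells.

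BRD9, the check of the labels, stood at 29.4 and 26.8 CPM after knockout and at 48.2 and 53.8 CPM in the control, always with replicate 1 first. Its log2 fold change of -0.86 (standard error 0.07) had an adjusted p of 2.84e-09 by the quasi-likelihood test of edgeR, and the level was 55.1% of control. A transcript of a cut gene can persist, so this value measures RNA and not protein. The estimated counts of the libraries summed to between 15053195 and 19559200. PTPRC, CD3E, HBB, CDH5, KDR and AQP2, defining markers of blood, endothelial and collecting duct cells, stood at 0 counts in all 4 libraries. Fewer cells in S phase and less of a transcript in each cell cannot be told apart in such bulk RNA.

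DNA replication starts from origins that are licensed in G1, when the origin recognition complex, CDC6 and CDT1 load the MCM2-7 helicase in an inactive form. In S phase CDC45 and GINS join the helicase, polymerases alpha, delta and epsilon copy the strands with the sliding clamp PCNA, and histones and DNA methylation are restored behind the fork. Many of these genes are transcribed under control of E2F factors towards the start of S phase, and several serve as markers of proliferating cells.

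Upstream sequence was taken from RefSeq (build GRCh38.p14) for the members with the larger changes, because promoters of replication genes often hold E2F and CCAAT letters. It is shown for PCNA, UHRF1, CDC6 and MCM10, which rose after BRD9 knockout, for ORC6, which fell, and for SLBP, which rose and whose stretch held neither motif. The stretches of FEN1, which rose, and PRIM2, which fell, held neither motif either and are not shown. Each stretch is the 150 bases before a transcription start, in the direction of the gene. They lie at chr20:5126623-5126772 on the minus strand (PCNA, the first of 2 listed starts), chr19:4909351-4909500 on the plus strand (UHRF1, the first of 3), chr17:40287729-40287878 on the plus strand (CDC6), chr10:13161408-13161557 on the plus strand (MCM10), chr16:46689509-46689658 on the plus strand (ORC6) and chr4:1712320-1712469 on the minus strand (SLBP). Capitals mark an E2F match (GCGGGAAA, the reverse complement of TTTCCCGC) or a CCAAT match on either strand (CCAAT or ATTGG).
PCNA: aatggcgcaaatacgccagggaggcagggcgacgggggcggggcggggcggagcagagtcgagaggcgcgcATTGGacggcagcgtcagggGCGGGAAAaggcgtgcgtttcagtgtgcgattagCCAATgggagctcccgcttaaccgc
UHRF1: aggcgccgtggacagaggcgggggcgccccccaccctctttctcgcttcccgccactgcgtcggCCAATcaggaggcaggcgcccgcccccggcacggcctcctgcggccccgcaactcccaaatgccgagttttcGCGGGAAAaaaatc
CDC6: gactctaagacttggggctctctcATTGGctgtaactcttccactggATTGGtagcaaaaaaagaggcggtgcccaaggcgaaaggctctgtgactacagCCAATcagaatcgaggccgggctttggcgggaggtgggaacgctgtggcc
MCM10: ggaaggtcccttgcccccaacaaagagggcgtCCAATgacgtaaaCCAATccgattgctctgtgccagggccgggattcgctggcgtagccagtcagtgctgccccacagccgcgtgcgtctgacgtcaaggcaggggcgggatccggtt
ORC6: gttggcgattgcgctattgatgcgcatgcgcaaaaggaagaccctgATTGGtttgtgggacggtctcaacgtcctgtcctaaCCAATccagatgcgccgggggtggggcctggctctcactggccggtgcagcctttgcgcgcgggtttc
SLBP: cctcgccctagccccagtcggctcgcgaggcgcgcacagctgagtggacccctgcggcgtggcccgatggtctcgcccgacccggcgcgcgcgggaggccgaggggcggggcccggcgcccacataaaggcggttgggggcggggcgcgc

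The PCNA stretch held the E2F letters 59 bases before the start, between CCAAT letters at 79 and 25 bases. The UHRF1 stretch held them 14 bases before the start, with CCAAT at 86. CDC6 had CCAAT letters at 126, 103 and 50 bases, and its E2F letters (TTTGGCGC) began at the 8th base after the start, outside the stretch shown. MCM10 had CCAAT at 118 and 105 bases and ORC6 at 104 and 68. These are matches of letters and were not tested as binding sites.

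Over the windows from 250 bases before to 50 after each listed start, 44 members had a sequence. The E2F letters searched were TTTCCCGC, TTTGGCGC, TTTCGCGC and TTTGCCGC on both strands, and they stood in 22 of the 44 (50%), against 3.99% of the 27305 genes with a window and 3.31% of the 35116 windows. Among members with a window, they stood in 6 of the 10 that were higher after knockout, 1 of the 5 that were lower and 15 of the 29 that did not pass. CCAAT, on both strands, stood in 25 members (56.8%) against 39.7% of all genes and 34.6% of windows: 8 of the 10 higher, 3 of the 5 lower and 14 of the 29 others. TGACTCA, the AP-1 letters, stood in 0 of the 44, in 6.05% of all genes with a window and in 4.95% of windows. No window was listed for MCM4, MCM5, GINS4, RPA2, RPA3 and POLD3.

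After BRD9 knockout the replication genes did not move as a block. At an adjusted p under 0.05 by edgeR, 12 of the 50 (24%) were higher, where 20.5% of all tested genes were, and 6 (12%) were lower, where 18.1% of all tested genes were. The other 32 did not pass, with log2 fold changes from -0.15 to 0.16. The median log2 fold change was 0.02 over the members and -0.01 over all genes tested, and the members ran from -0.33 to 0.45. Both shares stood near those of the genome as a whole, and what follows is therefore a matter of which genes moved. On counts, each change that passed was under 1.5-fold in the main fit, and 5 of the 18 passed a test against a fold change of 1.2: SLBP, UHRF1, CDC6, FEN1 and PCNA, all higher. By that test 644 of the 15288 tested genes were higher and 689 were lower. By limma on log2(TPM + 1), 11 of the 18 passed, whereas MCM3, MCM4, MCM6, GMNN, CDT1, RFC1 and RPA3 did not (limma adjusted p 0.065 to 0.279).

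In single libraries, both knockout values lay above both controls for 19 of the 50 members, where they did so for 34.1% of all tested genes. Both lay below both controls for 14 of the 50, where they did so for 34.5% of all tested genes. The remaining 17 overlapped. Standard errors of the log2 fold changes had a median of 0.05, and counts per library ran from 169 to 3977. The methods call the 2 libraries of a group biological replicates, the labels are silent on separate cultures, and a p-value here rests on the spread of these libraries alone, which may be technical.

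**Figure D1:**
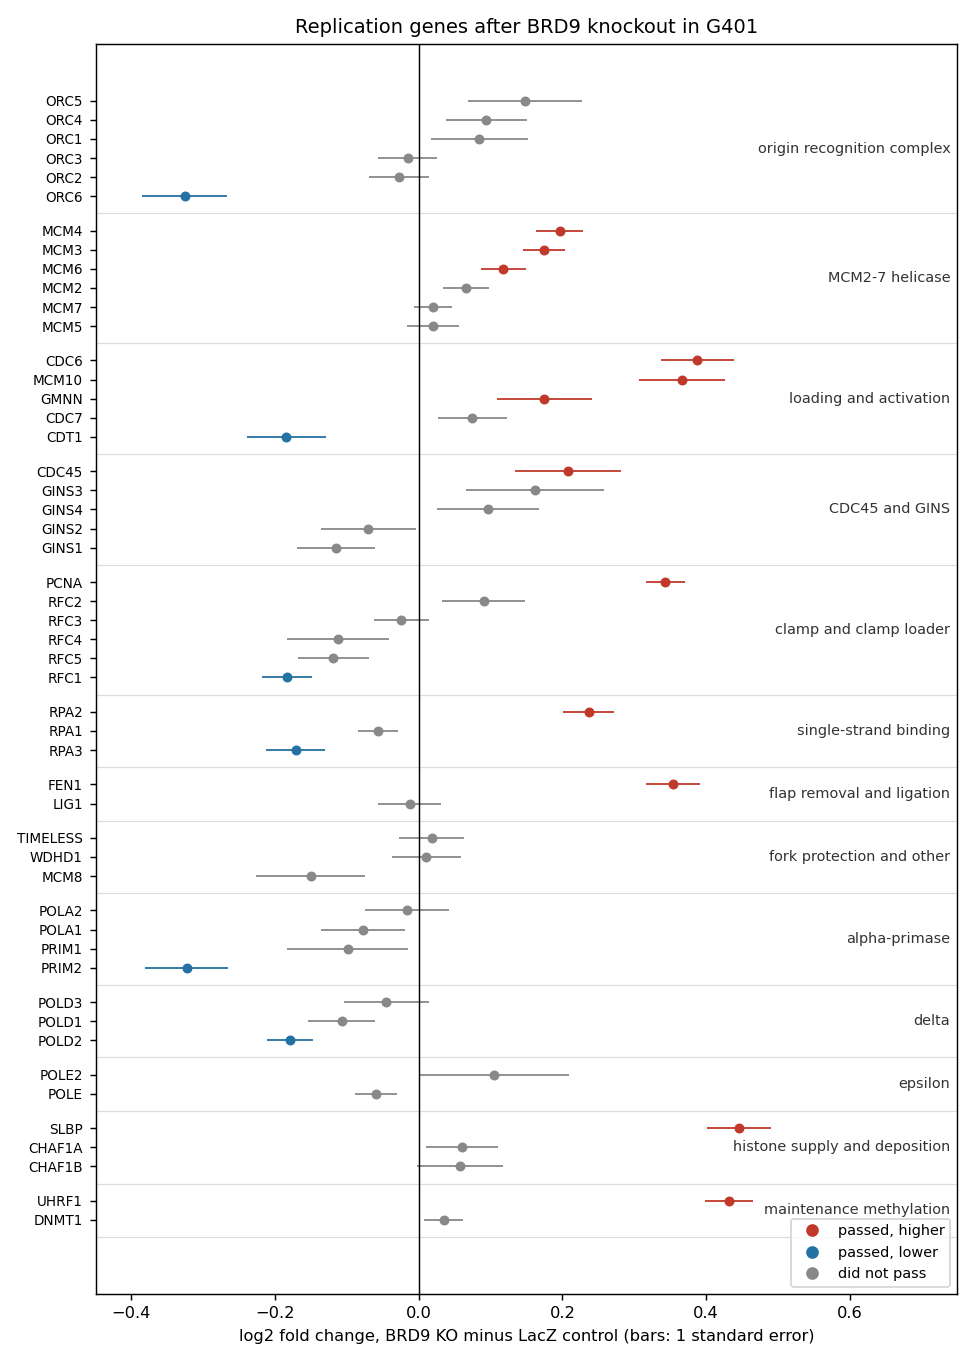
Log2 fold change of each of the 50 replication genes, BRD9 KO minus LacZ control (horizontal axis), grouped by role from top to bottom, with points for the edgeR estimate and bars for 1 standard error. Red points passed the test and were higher (12), blue points passed and were lower (6), and grey points did not pass (32). All estimates lie between -0.33 and 0.45.

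Of the 17 genes of origin licensing, 6 (35.3%) were higher, where 20.5% of all tested genes were. Lower were 2 (11.8%), where 18.1% of all tested genes were. The other 9 did not pass, and the median log2 fold change was 0.08. The 6 that rose were MCM3, MCM4, MCM6, CDC6, MCM10 and GMNN, the last of which encodes an inhibitor of loading. In the origin recognition complex 0 of 6 were higher and 1 (16.7%) was lower. Both knockout libraries lay above both controls for ORC1, ORC4 and ORC5, as they did for 34.1% of all tested genes. Differences between these subgroups were not tested.

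ORC6, the smallest subunit of the origin recognition complex, fell. It stood at 35.7 and 33.4 CPM in the BRD9 KO libraries and at 44.9 and 42.0 in the LacZ libraries, a log2 fold change of -0.33 (standard error 0.06, edgeR adjusted p 0.00018). The gene lies on the plus strand of chromosome 16, from 46723555 to 46732306 on GRCh37. Both knockout values were below both controls, and the call held in all 12 alternatives that keep the threshold of no change. ORC1 to ORC5 did not pass, with values from -0.03 to 0.15. ORC3, the highest of the complex per length by the mean over all 4 libraries, had 63.4 and 64.6 CPM after knockout and 63.6 and 65.6 in the control, and the groups overlapped (log2 fold change -0.02, edgeR adjusted p 0.811).

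The MCM2-7 genes encode the ring that unwinds DNA at the fork. All 6 had log2 fold changes above 0, except for MCM7 without LacZ replicate 1 (-0.0072). Of the 6, 3 (50%) passed as higher, where 20.5% of all tested genes were. MCM4 had 199.9 and 211 CPM after knockout and 174 and 184 in the control (log2 fold change 0.20, standard error 0.03, edgeR adjusted p 0.000238). MCM3 had 165 and 171 CPM against 150.4 and 147 (0.17, standard error 0.03, edgeR adjusted p 8.39e-05). MCM6 had 126 and 125 CPM against 118 and 114 (0.12, standard error 0.03, edgeR adjusted p 0.00536). In these 3 genes the knockout libraries lay above both controls, at a mean of 108% of control in MCM6 and 115% in MCM4. The MCM6 call was lost without LacZ replicate 2 (edgeR adjusted p 0.0858).

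MCM2 had 146 and 144 CPM after knockout and 134 and 143 in the control, a log2 fold change of 0.07 that did not pass (edgeR adjusted p 0.115) unless LacZ replicate 2 was left out (0.11, edgeR adjusted p 0.041). MCM5 had 86.9 and 89.3 CPM against 87.2 and 86.5 (0.02, edgeR adjusted p 0.725). MCM7 had 197 and 201 CPM against 192 and 199.9 (0.02, edgeR adjusted p 0.582). The knockout and control libraries of MCM5 and MCM7 overlapped. MCM7 shares exon sequence with AP4M1 on the other strand, and the kit named in the methods does not mark strand.

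The group of loading and activation held 5 genes, among them GMNN, which encodes an inhibitor of loading. Of these 5, 3 (60%) were higher and 1 (20%) was lower, where 20.5% and 18.1% of all tested genes were. CDC6, the ATPase that joins the origin recognition complex to load MCM2-7, rose to 69.7 and 62.9 CPM from 50.4 and 51.3 in the control (log2 fold change 0.39, standard error 0.05, edgeR adjusted p 4.6e-06). It lies on the plus strand of chromosome 17, from 38444131 to 38460909 on GRCh37. MCM10, which acts when the loaded helicase is switched on, rose to 41.5 and 38.9 CPM from 31.6 and 31.0 (0.37, standard error 0.06, edgeR adjusted p 6.15e-05). It lies on the plus strand of chromosome 10, from 13203558 to 13253110. Both genes passed in all 12 alternatives, and both had larger estimates on log2(TPM + 1), 0.61 for CDC6 and 0.59 for MCM10.

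CDT1, the partner of CDC6 in loading, went the other way. It had 37.4 and 37.7 CPM after knockout and 43.7 and 41.6 in the control, a log2 fold change of -0.18 (standard error 0.05, edgeR adjusted p 0.0115), but did not pass by DESeq2 (adjusted p 0.143), without BRD9 KO replicate 1 (edgeR adjusted p 0.06) or without LacZ replicate 1 (edgeR adjusted p 0.103). GMNN, which encodes the CDT1 inhibitor geminin, had 29.4 and 30.6 CPM against 25.9 and 27.1 (0.17, standard error 0.07, edgeR adjusted p 0.0442). That call was the weakest of the 18: it was lost by DESeq2 (adjusted p 0.183) and whichever library was left out (edgeR adjusted p 0.0736 to 0.189). CDC7, the kinase that fires loaded origins, had a log2 fold change of 0.07 and did not pass.

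**Figure D2:**
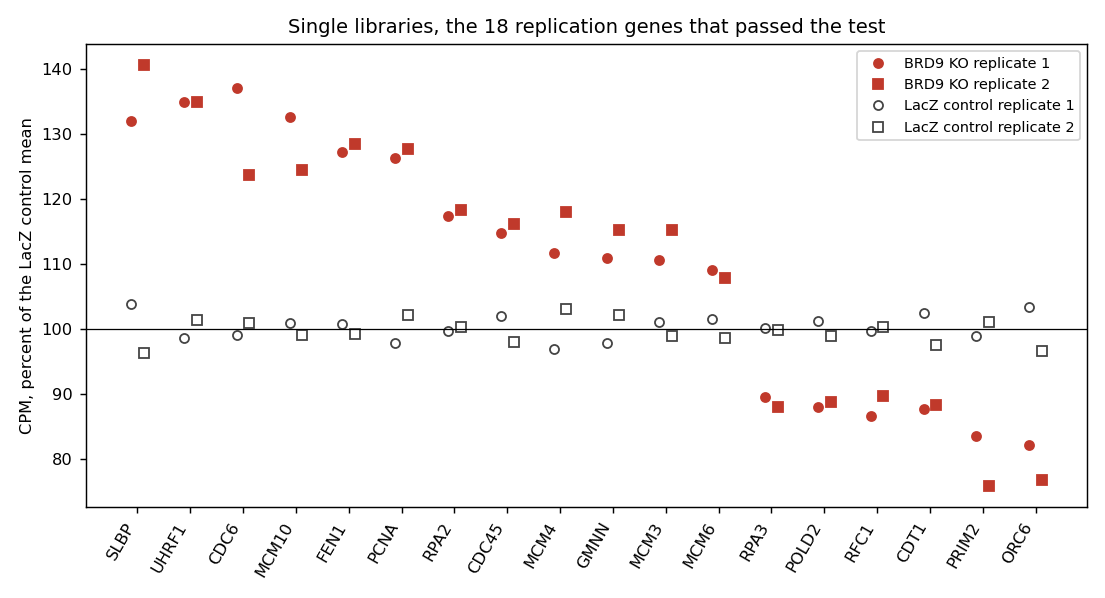
CPM of the 18 replication genes that passed the edgeR test, as a percent of the mean of the 2 LacZ control libraries (vertical axis), 1 point per library. Filled red marks are the BRD9 KO libraries and open marks the LacZ control libraries, and the genes run from SLBP, with a knockout mean at 136% of control, to ORC6, at 79.5%.

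The fork genes moved in both directions. Of 19 genes, 4 (21.05%) were higher, where 20.5% of all tested genes were, and 2 (10.53%) were lower, where 18.1% were. The other 13 did not pass, and the median log2 fold change was -0.01. PCNA, the sliding clamp that holds the polymerases on DNA, was the most abundant member per length. It reached 204 and 206 CPM after knockout and 158 and 165 in the control (log2 fold change 0.34, standard error 0.03, edgeR adjusted p 5.43e-09), and its gene is on chromosome 20 (5095599 to 5107272, minus strand, GRCh37). None of the 5 subunits of its loader passed as higher. RFC1, the large subunit, fell by 0.18 on the log2 scale (92.1 and 95.3 CPM against 106 and 107, edgeR adjusted p 0.00025), and RFC2 to RFC5 did not pass, from -0.12 to 0.09.

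FEN1, the nuclease that removes the flaps of Okazaki fragments, rose to 83.6 and 84.5 CPM from 66.3 and 65.2 (log2 fold change 0.35, standard error 0.04, edgeR adjusted p 2.83e-07). It lies on the plus strand of chromosome 11, from 61560383 to 61564710, and shares exon sequence with FADS2 on the same strand. The posterior standard deviation of its count was at most 0.011% of the count, so that few of its reads were split between genes. LIG1, the ligase that seals the nick FEN1 leaves, did not pass (-0.01). Its libraries overlapped.

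The single-strand binding complex RPA split between its subunits. RPA2 rose by 0.24 on the log2 scale, with 95.5 and 96.1 CPM against 81.1 and 81.5 (standard error 0.04, edgeR adjusted p 2.31e-05). RPA3, the most abundant of the 3 per length, fell by 0.17, with 58.7 and 57.7 CPM against 65.7 and 65.5 (standard error 0.04, edgeR adjusted p 0.00254), but did not pass by DESeq2 (adjusted p 0.0773). RPA3 overlaps RPA3-AS1 on the other strand, and in shared exons the strand of a read is not known. The posterior standard deviation of the RPA3 count was at most 0.015% of the count, so that few of its reads were split between genes. RPA1, the large subunit, did not pass (-0.06).

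CDC45, which turns the helicase on together with GINS, had 24.0 and 24.2 CPM after knockout and 21.3 and 20.5 in the control (log2 fold change 0.21, standard error 0.07, edgeR adjusted p 0.0315). The groups did not overlap, yet the call was lost by DESeq2 (adjusted p 0.16) and whichever library was left out (edgeR adjusted p 0.0644 to 0.159). The 4 GINS subunits did not pass, from -0.12 for GINS1 to 0.16 for GINS3. TIMELESS, of the fork protection complex, had 73.7 and 81.4 CPM against 75.6 and 77.0 (0.02, edgeR adjusted p 0.789), and WDHD1 and MCM8 did not pass either.

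Among the 9 listed genes of the replicative polymerases none passed as higher, where 20.5% of all tested genes did. The list leaves out 3 subunits that are part of the wider list. Of these, POLE3 (log2 fold change 0.33) and POLE4 (0.31) of polymerase epsilon passed as higher, and POLD4 (0.01) did not pass. The POLE4 call was lost by DESeq2. Of the 9 listed genes, 2 (22.2%) were lower, where 18.1% of all tested genes were, and 7 did not pass. Their median log2 fold change was -0.08, and 8 of the 9 estimates were below 0, where 7799 of all 15288 tested genes were. These shares were not compared by a test. POLA2 was above 0 without LacZ replicate 1 (0.0177) and when low counts were kept (0.0004). POLD3 ran up to 0.0026 over the alternatives. PRIM2, the large subunit of the primase that starts each new strand, had 38.2 and 34.6 CPM after knockout and 45.2 and 46.1 in the control (log2 fold change -0.32, standard error 0.06, edgeR adjusted p 0.000156). It lies on the plus strand of chromosome 6, from 57179603 to 57513376 on GRCh37. POLD2, an accessory subunit of polymerase delta, had 107 and 108 CPM against 123 and 120.1 (-0.18, standard error 0.03, edgeR adjusted p 0.000148). Both knockout libraries lay below both controls in each gene, and both calls held in all 12 alternatives.

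POLA2, the most abundant alpha-primase gene per length, had 35.7 and 35.4 CPM against 36.8 and 35.1, and the groups overlapped (log2 fold change -0.02, edgeR adjusted p 0.864). POLE, the catalytic subunit of polymerase epsilon, had 137 and 137 CPM against 144 and 141 (-0.06, edgeR adjusted p 0.116). POLE2 was the one gene of the 9 with an estimate above 0 (0.10), and the least well counted member, with 169 to 237 counts per library.

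Chromatin assembly behind the fork held the genes with the highest fold changes in the main fit on counts, SLBP and UHRF1, but not on TPM, where CDC6 and MCM10 were higher, nor without BRD9 KO replicate 2, where CDC6 was highest (0.45). Without LacZ replicate 2, CDC6 (0.40) was also above SLBP (0.39). Of 5 genes, 2 (40%) were higher, where 20.5% of all tested genes were, and 0 were lower, where 18.1% were. The other 3 did not pass, and the median log2 fold change was 0.06. SLBP, which binds the stem-loop of replication-dependent histone mRNAs, rose to 82.8 and 88.3 CPM from 65.1 and 60.4 (log2 fold change 0.45, standard error 0.04, edgeR adjusted p 1.19e-07). UHRF1, which reads hemimethylated DNA and recruits the maintenance methyltransferase, rose to 117 and 117 CPM from 85.6 and 88.1 (0.43, standard error 0.03, edgeR adjusted p 3.88e-09). On GRCh37 their places are chromosome 4, 1694458 to 1714071 on the minus strand (SLBP), and chromosome 19, 4903092 to 4962165 on the plus strand (UHRF1).

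DNMT1, that methyltransferase, had 189 and 185 CPM against 186 and 180.3 (log2 fold change 0.03, edgeR adjusted p 0.33), and its libraries overlapped. CHAF1A and CHAF1B, the subunits of the histone chaperone CAF-1, did not pass either (0.06 and 0.06). The rises in this group were thus carried by 1 gene of histone mRNA metabolism and 1 of methylation maintenance.

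Ratios between partner genes within a library lay apart between the groups. These pairs were chosen after the values were seen, largely for their calls, and the ratios are given as a description with no test. CDC6 had 1.86 and 1.67 counts for each count of CDT1 after knockout, and 1.15 and 1.23 in the control. PCNA had 2.22 and 2.16 for each of RFC1, against 1.49 and 1.55. UHRF1 had 0.619 and 0.633 for each of DNMT1, against 0.461 and 0.488. FEN1 over LIG1 was 1.46 and 1.42 against 1.12 and 1.11, and RPA2 over RPA3 was 1.63 and 1.66 against 1.23 and 1.24. Counts are not corrected for length here, so each ratio is read between libraries and not as a molar ratio.

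**Figure D3:**
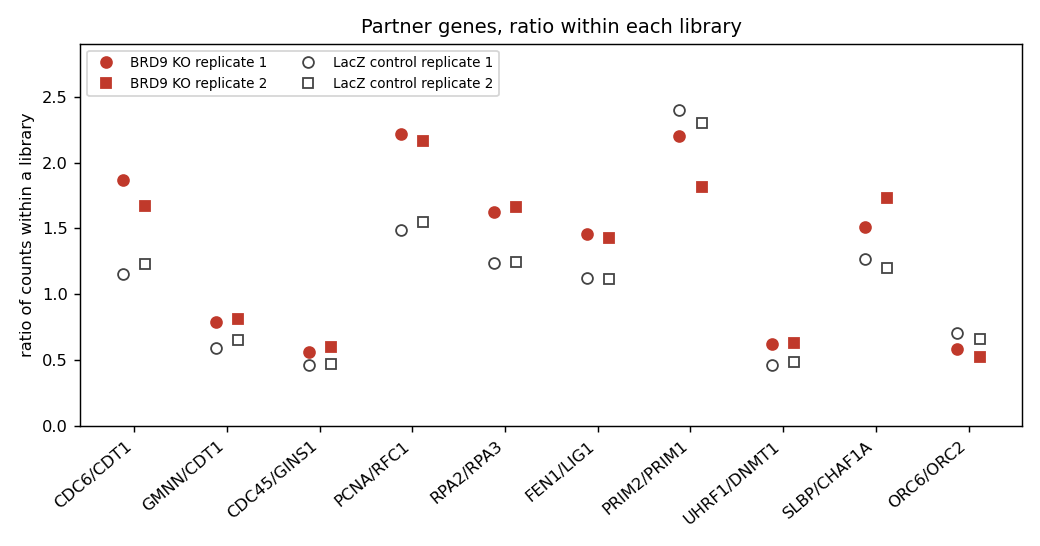
Ratio of the counts of 10 pairs of partner genes within each library (vertical axis), with filled red marks for BRD9 KO and open marks for LacZ control. The groups do not overlap in any of the 10 pairs, which were chosen after the values were seen, largely for their calls. The knockout libraries lie higher in 8 and lower for PRIM2 over PRIM1 and ORC6 over ORC2.

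Levels per length, in transcripts-per-million (TPM), spanned 11.8 for GINS3 to 239 for PCNA as means of the 4 libraries. Within complexes the spread differed. The 5 RFC subunits lay within 1.41 to 1.46 times of each other in every library, and the 3 RPA subunits within 1.52 to 1.97 times. The MCM2-7 genes ran from 55.6 TPM (MCM6) to 134 TPM (MCM7), a ratio of highest to lowest between 2.25 and 2.61 in each library. The origin recognition genes ran from 14.7 TPM (ORC1) to 49.5 TPM (ORC3) by the mean over the 4 libraries. ORC6 stood above ORC3 in both controls (54.9 and 53.7 TPM against 48.8 and 51.4) and below it in both knockout libraries (45.1 and 43.1 against 48.4 and 49.5). By the same mean, polymerase delta ran from 20.4 TPM (POLD3) to 157 TPM (POLD2). Of the helicase genes, MCM7 stood above and MCM6 below the other 4 in every library, and MCM4 stood above MCM3 in each. The order of MCM5 and MCM2 differed between libraries. Of the clamp loader, RFC4 (44.8 to 64.0 TPM) overlapped each of RFC2, RFC3 and RFC5.

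Summed over the 9 polymerase genes, the level was 377 and 386 TPM after knockout and 413 and 422 in the control. Over the 5 chromatin assembly genes it was 301 and 313 TPM against 266 and 256, and over the 17 licensing genes 919 and 938 TPM against 869.8 and 869.7. Over the 19 fork genes it was 1155 and 1156 TPM against 1074 and 1111. The sums of licensing, fork and chromatin assembly lay higher after knockout and that of the polymerases lower, without overlap. A sum follows its most abundant genes, so it does not show that a whole group shifted. Within the fork sum PCNA held 267 and 269 TPM after knockout against 205 and 214 in the control. Within chromatin assembly SLBP held 96.2 and 101 TPM against 74.7 and 70.3, and UHRF1 51.6 and 50.8 against 37.1 and 38.1. Within the polymerase sum POLD2 held 143 and 150 TPM against 164 and 169. All 50 genes together took 0.357% and 0.359% of the counts after knockout and 0.343% and 0.344% in the control.

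**Figure D4:**
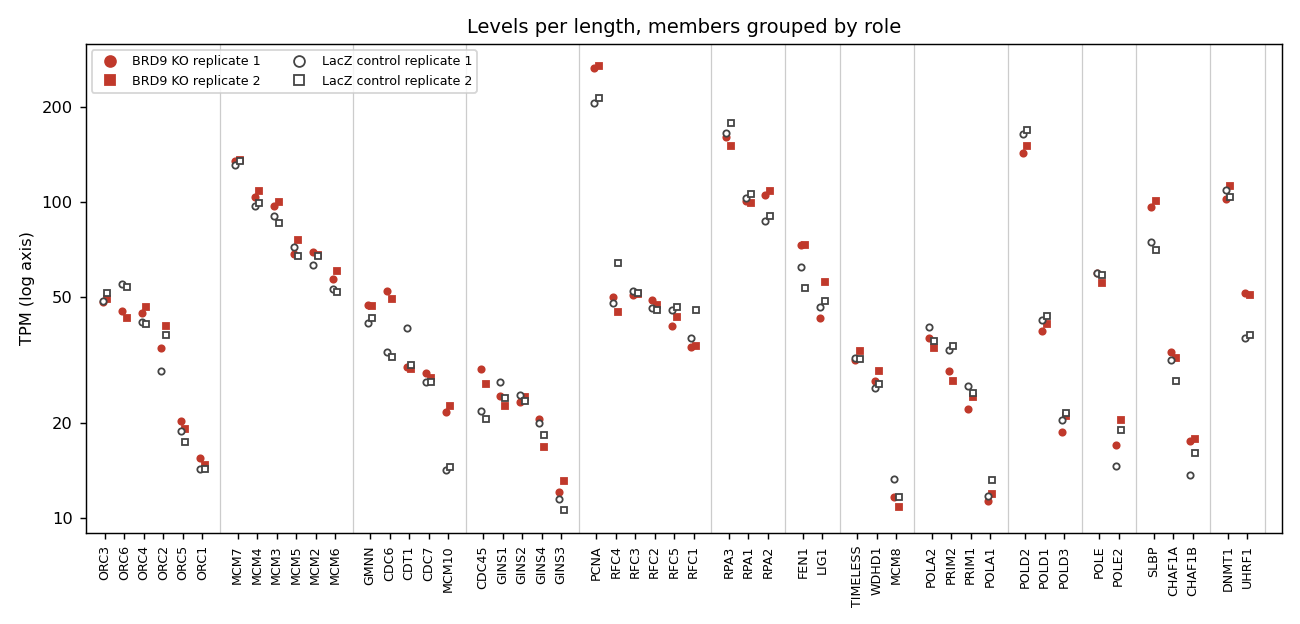
TPM of the 50 replication genes in each library (vertical log axis), ordered from high to low within each role, with filled red marks for BRD9 KO and open marks for LacZ control. PCNA is highest, at 205 to 269 TPM, and the 3 polymerase delta genes keep the order POLD2, POLD1, POLD3 in all 4 libraries.

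The effective length of a gene, which RSEM weights by the estimated mix of its transcripts, is a measure that the test on counts does not use. It was shorter by at least 10% after knockout, without overlap between groups, for 4 of the 50 members (8%), where 4.19% of all tested genes were. By the same cut 0 of the 50 were longer, where 5.29% of all tested genes were. The 4 shorter genes were CDC6, MCM10, CDC45 and CHAF1B. CDC6 had effective lengths of 2214 and 2124 bases after knockout and 2491 and 2618 in the control (-15.1%). MCM10 had 3183 and 2860 bases against 3682 and 3518 (-16.1%), CDC45 1338 and 1520 against 1614 and 1638 (-12.1%), and CHAF1B 3430 and 3323 against 4047 and 3636 (-12.1%). MCM4 was the member that moved most the other way without overlap, 6.82% longer after knockout. TPM divides by this length, and the fold changes of these genes in TPM differ accordingly: on log2(TPM + 1) CDC6 had 0.61 where counts gave 0.39, MCM10 had 0.59 where counts gave 0.37, CDC45 had 0.39 where counts gave 0.21, and MCM4 had 0.11 where counts gave 0.20. No test was run on the lengths, and transcripts were not counted one by one.

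**Figure D5:**
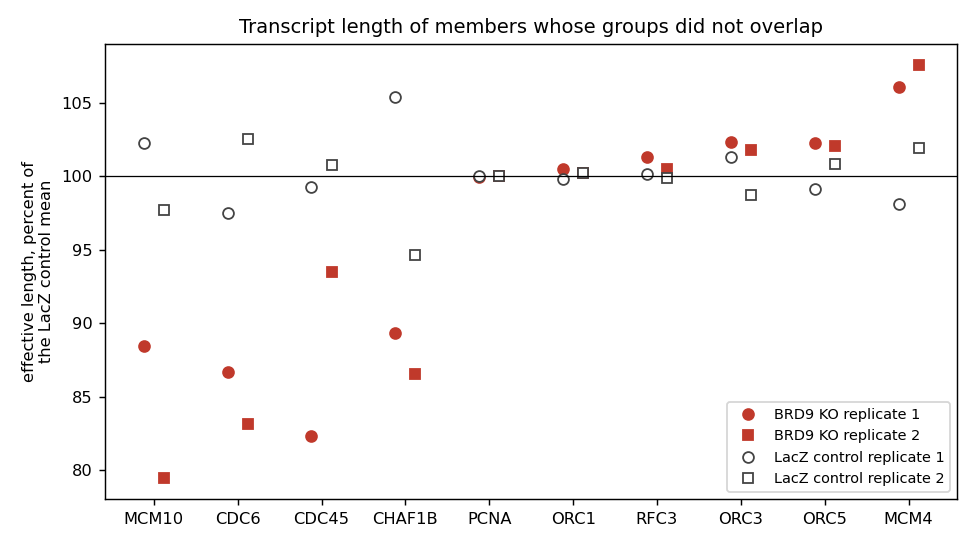
Effective length of the 10 replication genes whose groups did not overlap, as a percent of the mean of the 2 LacZ control libraries (vertical axis, not starting at 0), 1 mark per library. Of the 50 members, 10% were longer and 10% shorter without overlap, where 16.7% and 14.3% of all tested genes were. MCM10, CDC6, CDC45 and CHAF1B are shorter in both BRD9 KO libraries (filled red), by 12.1% to 16.1% on average, and MCM4 is 6.82% longer.

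A wider list of 54 further tested replication genes, the regulators and auxiliary factors of the same 4 groups, had 10 higher (18.5%) and 11 lower (20.4%), with a median log2 fold change of -0.02. These shares too lay near those of all tested genes. Among fork factors, TOP2A, a topoisomerase that untangles replicated DNA, had 440 and 433 CPM after knockout and 518 and 514 in the control (-0.24, edgeR adjusted p 4.19e-10), while TOP1, which relaxes DNA ahead of the fork, was 0.18 higher. CHTF18, of an alternative clamp loader, was 0.29 lower on the log2 scale. Of the 9 polymerase genes among the members 0 were higher and 2 were lower. In the polymerase group of the wider list 3 of 5 (60%) passed and all 3 were higher, where 20.5% of all tested genes were. By DESeq2 2 of the 5 passed, since POLE4 did not (edgeR adjusted p 0.0258, DESeq2 adjusted p 0.127), and POLE4 was also lost without BRD9 KO replicate 2 (edgeR adjusted p 0.316) and without either LacZ library. POLE3, a histone-fold subunit of polymerase epsilon, had 71.9 and 76.1 CPM against 58.1 and 59.6 (0.33, edgeR adjusted p 4.42e-06), and POLDIP2, which binds polymerase delta, was 0.23 higher. Whether the polymerase genes of the members and those of the wider list differ was not tested. Of the licensing regulators, DBF4B, an activator of CDC7, was 0.35 lower (edgeR adjusted p 0.000372, limma adjusted p 0.101 on TPM). Among chromatin factors CBX5 had 398 and 390 CPM after knockout and 474 and 467 in the control (-0.25, edgeR adjusted p 4.91e-10). It did not pass by limma on log2(TPM + 1) (adjusted p 0.093). RBBP4, the small CAF-1 subunit shared with other complexes, was 0.13 higher. HAT1, which acetylates new histones, was 0.18 lower (edgeR adjusted p 0.00193, DESeq2 adjusted p 0.0563).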

How the data were processed

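RNA was measured in 4 libraries of G401 cells (BRD9 KO and LacZ control, replicates 1 and 2), grouped by their titles, and all 4 were used. Reads had been mapped with STAR (hg19) and genes quantified with RSEM by the authors, at versions not given in the sources used. The labels and the methods differ on the RNA extraction, which is not settled here. The deposited estimated count (expected count) of each gene splits reads that match several genes and has no scaling between libraries. The TPM values deposited by the authors are scaled within each library and corrected for effective length. The authors' RSEM output also gave the effective length and the posterior standard deviation of each count, which was at most 1.90% of the count over the members. Exons of 11 members overlapped a tested gene of the opposite strand, and those of 5 a gene of the same strand.

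Counts were rounded and tested with the quasi-likelihood test of edgeR 4.0.16 (R 4.3.3), with TMM scaling, filterByExpr, robust dispersions, no covariate, two-sided, and Benjamini-Hochberg adjustment over the 15288 genes tested. CPM is TMM-scaled, log2 fold changes are knockout over control, and standard errors follow from the F statistic. Totals were 19559200 and 16393900 (BRD9 KO) and 15053195 and 16673430 (LacZ). The 2 replicates of a group differed beyond sampling noise (chi-square per degree of freedom 1.59 and 1.62 over genes with at least 20 counts).

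Positions come from GENCODE v44 on GRCh37 by Ensembl identifier, and for UHRF1 by symbol. Promoter windows come from RefSeq, GRCh38.p14. The members and lists were chosen with earlier results of these data known. Values in every library are given for members that passed with an absolute log2 fold change of at least 0.3, for MCM2-7, for the most abundant member of each role, and for some others chosen after their values were seen; of the wider list, up to 2 genes per group and direction with the smallest p were eligible and not all are printed. Alternatives were DESeq2 1.42.0, RLE scaling, library totals as the only scaling, the fit without a filter on counts, a filter of 1 CPM in every library, limma 3.58.1 on log2(TPM + 1) and log2(TPM + 0.1), a block for the replicate number, the omission of each library in turn, and a test against a fold change of 1.2. The test was tried on simulated data, in which the share of false calls was above the nominal one, so that members near the threshold are the least secure.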

Additional observations from a re-analysis of the deposited data

How the results depend on the processing

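Of the 18 calls among the members, 10 held in all 12 alternatives other than the test against a fold change of 1.2. Main counts were 3127 higher and 2774 lower over all genes, 12 and 6 over the members, and 10 and 11 over the wider list. DESeq2 gave 1439 lower over all genes and 7 lower over the wider list, and called 14 members, all among the 18. With limma on TPM the members were 3 lower with either pseudocount, all genes were 1341 higher and 1103 lower (pseudocount 1) or 1328 and 1089 (pseudocount 0.1), and the wider list was 4 higher and 3 lower with either. The test against a fold change of 1.2 gave 644 higher and 689 lower over all genes, 5 and 0 over the members and 0 and 0 over the wider list. The cause was not tested; the last setting asks for more by construction.

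With 1 library omitted, the single one left in its group was taken to vary as the other group does. Counts then ran from 2318 to 2657 higher and 1855 to 2311 lower over all genes, 10 higher and 5 to 6 lower over the members, and 7 to 9 higher and 8 to 11 lower over the wider list. Some estimates near 0, none of them called, changed sign. With 1 library omitted, ORC3 ran from -0.0361 to 0.0076, MCM7 from -0.0072 to 0.0496, TIMELESS from -0.0504 to 0.0958 and POLA2 from -0.0514 to 0.0177. With no filter, ORC3 came to 0.001 and POLA2 to 0.0004.

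Libraries share replicate numbers across groups, but nothing says that a number marks a shared batch, and the deviations of same-numbered libraries correlated at -0.0535. With the replicate number as a block, 12 members were higher and 6 lower, the same 18 genes, with 3226 and 2883 over all genes and 10 and 11 over the wider list. With 2 libraries a group, a library far from the others cannot be told.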
